A study of Rattus norvegicus with 6 samples.

Results

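Myod1 and 9 further genes of skeletal muscle were followed in stromal cells grown from the blood and the marrow of the same rats. The 10 genes, Myod1, Myog, Acta1, Klhl41, Tnnc1, Tnni1, Tnni2, Tnnt2, Ckm and Mb, were found by gene symbol on 12 of 15923 probe sets of the Affymetrix RAE230A array, out of 10411 genes that at least 1 probe set named alone. Tnni1 and Tnnt2 had 2 probe sets each. The genes were selected on earlier results of these arrays, both the contrast of blood and marrow cultures and the spread among marrow cultures, so their values below are a description, and the fit's p-values for them are no independent evidence.

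The arrays measured mesenchymal stromal cells in culture, which attach to plastic and look like fibroblasts. The peripheral blood group (PB_MSC) had 3 cultures and the bone marrow group (BM_MSC) had 3 cultures, with 1 culture of each kind from each of the rats S4, S5 and S6. All 3 rats carried a GFP transgene, and all cultures were grown in medium with 15% fetal bovine serum and used at passage 2, and 10 µg of total RNA went into each labelling. Strain, age, sex and the promoter of the transgene were not stated in the labels. Each rat and source is represented by 1 culture and 1 array, which limits the precision of every value, and the spread between rats includes the spread between cultures. The deposited values were read as log2 signals. They had a median of 8.18 over the whole table and array medians between 8.12 and 8.22.

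Myod1 encodes a basic helix-loop-helix transcription factor of the muscle lineage that binds E-boxes, short DNA motifs in muscle gene promoters and enhancers, and that can turn fibroblasts in culture into muscle cells. Myog, or myogenin, acts later in the same programme, when myoblasts stop dividing and fuse. Their targets include the actin, troponin and myosin genes of the sarcomere and genes of muscle energy supply such as Ckm and Mb. Stromal cells of the marrow are usually described as giving rise to bone, cartilage and fat cells.

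Myod1 stood at 4.56, 4.56 and 3.59 log2 units in the blood cultures of rats S4, S5 and S6, against 5.81, 9.09 and 10.17 in the marrow cultures of the same rats. The marrow cultures of rats S5 and S6 were thus far above all other cultures, while the marrow culture of rat S4 lay only 1.25 above the blood culture of that rat. Within its array, the Myod1 signal was above 69.7% and 86.1% of all probe sets in the marrow cultures of rats S5 and S6. It was above 2.65%, 2.67% and 0.876% of them in the blood cultures of rats S4, S5 and S6, and above 9.08% in the marrow culture of rat S4. The differences, blood minus marrow, were -1.25, -4.53 and -6.58 in rats S4, S5 and S6, with a mean of -4.12 ± 1.00 (SE). This corresponds to a 17.4-fold lower signal in blood cultures, an approximate fold because no background level is known for signals below the table's median. In bulk RNA, fewer cells of a type and less RNA per cell cannot be told apart, here and for every gene below.

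Myog was above the table's median in all 6 cultures and hardly varied. Its log2 signal was 8.50, 8.68 and 8.53 in blood cultures, against 8.84, 8.93 and 8.95 in marrow cultures. The groups did not overlap, but the mean difference of -0.34 ± 0.13 was small beside that of Myod1. Its marrow cultures differed by at most 0.11, where those of Myod1 differed by 4.36. Whether the signal of this probe set is specific to Myog was not tested. Of 9 cardiac muscle markers, 5 also averaged above the table's median on their brightest probe sets. Among them was Myh6, at 10.60 to 10.76 over all 6 cultures. The dimmer probe set of Myh6 stood at 7.13 to 7.58, below the table's median.

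**Figure D1:**
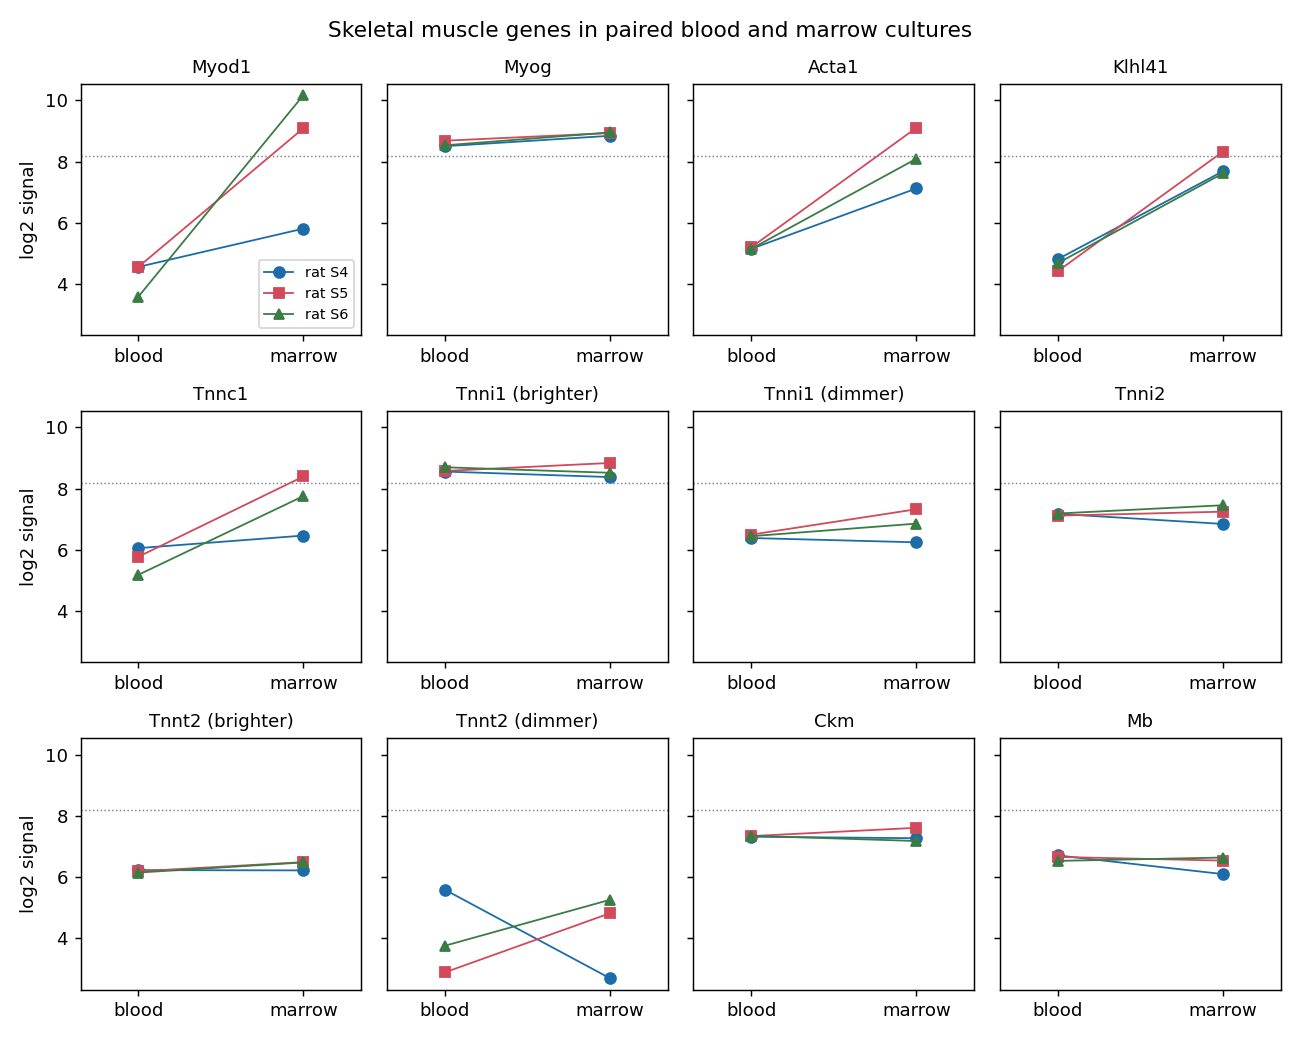
Log2 signal (vertical axis) of each of the 12 probe sets in blood cultures (left of each panel) and marrow cultures (right), with a line joining the 2 cultures of a rat and a dotted line at the table's median of 8.18. Myod1, Acta1, Klhl41 and Tnnc1 were low in all 3 blood cultures, and Myod1 reached 9.09 and 10.17 in the marrow cultures of rats S5 and S6, against 5.81 in that of rat S4.

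Among the contractile genes, Acta1 and Tnnc1 were lower in blood cultures in each rat. Acta1 encodes the skeletal alpha-actin of the thin filament. It stood at 5.15, 5.20 and 5.15 in blood cultures, against 7.12, 9.10 and 8.09 in marrow cultures. The blood cultures were nearly identical to each other, with a range of 0.05, and the marrow cultures were all higher and spread over 1.98. The mean difference of Acta1 was -2.94 ± 0.38, a 7.66-fold lower signal in blood cultures. Near-identical copies of actin exist, and whether these probes tell them apart was not tested. Acta2, the smooth muscle actin, ran the other way, at 10.41, 10.10 and 10.64 in blood cultures and 9.68, 10.06 and 9.57 in marrow cultures.

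Tnnc1 encodes the troponin C of slow skeletal and cardiac muscle, the calcium sensor of the thin filament. It stood at 6.06, 5.78 and 5.19 in blood cultures, against 6.47, 8.40 and 7.76 in marrow cultures. As with Myod1, the marrow culture of rat S4 was close to the blood culture of the same rat, with a difference of -0.41, while rats S5 and S6 differed by -2.62 and -2.57. The mean was -1.87 ± 0.48.

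Klhl41 encodes a Kelch-family protein that helps to assemble and stabilise the sarcomere. Its signals were 4.81, 4.42 and 4.68 in blood cultures, against 7.68, 8.32 and 7.61 in marrow cultures. Unlike Myod1, Klhl41 was far above its blood level in the marrow culture of rat S4 as well, and its 3 marrow cultures lay within 0.71 of each other. Its signal was above 39.6%, 52.7% and 37.7% of all probe sets in the marrow cultures of rats S4, S5 and S6. The differences of -2.87, -3.90 and -2.93 had a mean of -3.23 ± 0.25, a 9.40-fold lower signal in blood cultures.

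The other troponin genes among the members showed no separation of the groups. Tnni1, the slow skeletal troponin I, stood on its brighter probe set at 8.56, 8.58 and 8.70 in blood cultures and 8.38, 8.84 and 8.52 in marrow cultures. On its dimmer probe set it was at 6.39, 6.50 and 6.45 in blood cultures, against 6.25, 7.33 and 6.86 in marrow cultures. Both probe sets were highest in the marrow culture of rat S5, but the blood and marrow values overlapped on each, with mean differences of 0.03 ± 0.15 and -0.37 ± 0.22. Tnni2, the fast skeletal troponin I, stood at 7.18, 7.12 and 7.19 in blood cultures and 6.85, 7.25 and 7.46 in marrow cultures, a difference of -0.02 ± 0.17.

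Tnnt2 encodes the troponin T of the heart, which embryonic skeletal muscle also makes. Its brighter probe set varied little, at 6.23, 6.19 and 6.15 in blood cultures and 6.22, 6.49 and 6.48 in marrow cultures. The dimmer one ran in opposite directions in different rats, at 5.59, 2.89 and 3.76 in blood cultures and 2.70, 4.82 and 5.26 in marrow cultures. These last values lie among the lowest 7.63% of signals on each array, and the mean difference of -0.18 ± 0.99 did not exceed the spread between rats.

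Neither member gene of energy supply separated blood from marrow cultures. Ckm, the muscle creatine kinase, stood at 7.32, 7.34 and 7.35 in blood cultures and 7.27, 7.61 and 7.18 in marrow cultures, a difference of -0.02 ± 0.15. Mb, the oxygen store myoglobin, stood at 6.71, 6.66 and 6.53 in blood cultures and 6.10, 6.54 and 6.64 in marrow cultures, a difference of 0.21 ± 0.18. In both genes the groups overlapped and all 6 signals were below the table's median. The same held for Ryr1 and Chrna1 of the skeletal marker list, which are not members. Ryr1, the calcium release channel, stood at 5.68, 6.45 and 5.99 in blood cultures and 6.13, 6.38 and 5.79 in marrow cultures. Chrna1, a subunit of the muscle acetylcholine receptor, ranged from 7.86 to 8.0 in blood cultures and from 7.56 to 8.01 in marrow cultures.

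**Figure D2:**
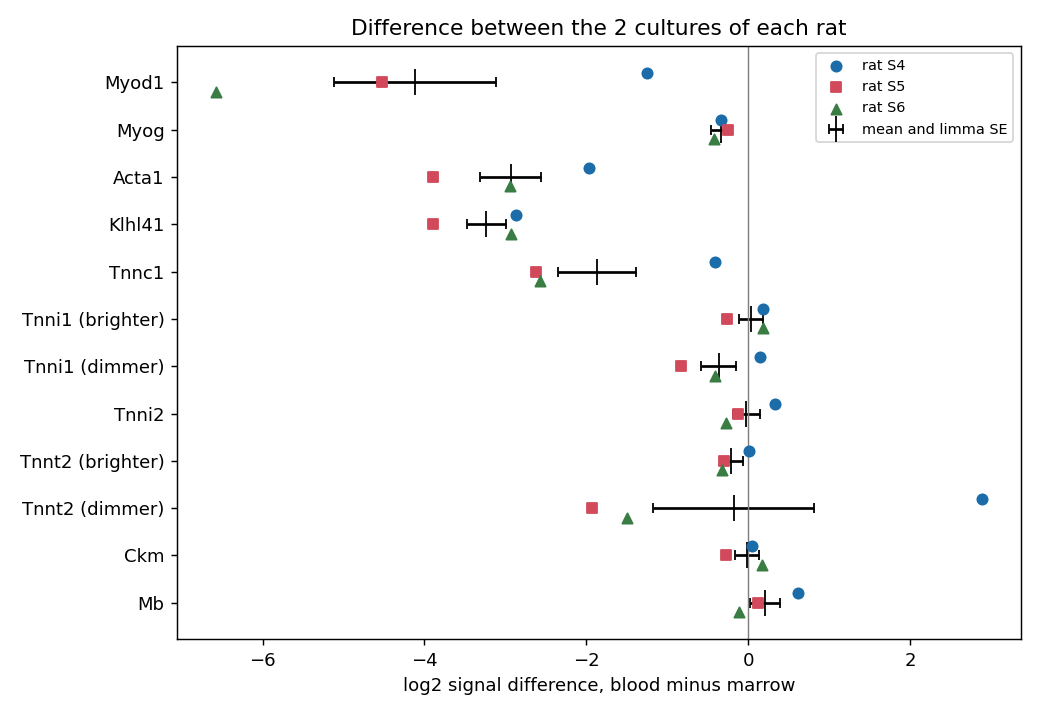
Log2 signal difference, blood minus marrow (horizontal axis), for each probe set, with 1 symbol per rat and a black bar for the mean and its limma SE. Myod1, Myog, Acta1, Klhl41 and Tnnc1 lie left of 0 in all 3 rats, and the values of Myod1 run from -6.58 to -1.25.

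In all, 10 of 12 member probe sets had a mean difference below 0, and the median over the 10 genes, with the brightest probe set standing for each, was -0.27, against -0.01 over all 10411 genes. In 5 of the 10 genes, Myod1, Myog, Acta1, Klhl41 and Tnnc1, every blood culture lay below every marrow culture, which held for 9.73% of all genes and 9.39% of all probe sets measured on all 6 arrays. The opposite order was found for none of the members and for 6.95% of all probe sets. In limma, fitted with the rats as blocks and with p-values adjusted by Benjamini-Hochberg over all probe sets, Klhl41 passed an adjusted p of 0.05 (adjusted p = 0.0254) and the other 11 member probe sets did not. The share of all probe sets called was 0.517%, with 0.252% lower and 0.265% higher in blood cultures. The adjusted p was 0.0743 for Acta1, 0.25 for Myod1, 0.27 for Tnnc1 and 0.431 for Myog. Nothing is read from this count, because the genes were chosen with the contrast known. Klhl41 did not pass without rat S4 (adjusted p = 0.332) or without rat S6 (adjusted p = 0.177), settings in which no probe set of the array passed. Acta1 passed in a fit that lets the variance follow the signal (adjusted p = 0.0193), a setting chosen after seeing the data.

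The genes differed in how they varied between marrow cultures. The range over the 3 marrow cultures exceeded that over the 3 blood cultures in 9 of 10 genes, against 50.5% of all genes, and the exception was Myog. The median range of the 10 genes was 0.16 in blood cultures and 0.58 in marrow cultures. Over all genes it was 0.32 in blood and 0.33 in marrow cultures. A marrow range of 1 log2 unit or more was found for Myod1, Acta1 and Tnnc1 on the brightest probe sets, or 3 of 10 genes, and for 7.04% of all genes. The marrow culture of rat S4 was the lowest of the 3 in 8 of 10 genes, all but Klhl41 and Ckm, against 38.1% of all genes. The margin to the next culture was only 0.09 in Myog and 0.14 in Tnni1. Nothing is read from this count either, because the genes were selected in part on the spread among marrow cultures. With 1 culture left out a range cannot grow, so the ranges that follow are a description only. Without rat S4 the marrow range was 1.08 for Myod1, 1.01 for Acta1 and 0.64 for Tnnc1, with a median of 0.38 over the 10 genes. Without rat S5 the marrow range was 4.36 for Myod1, 0.97 for Acta1, 0.07 for Klhl41 and 1.29 for Tnnc1. Without rat S6 it was 3.28 for Myod1, 1.98 for Acta1 and 1.93 for Tnnc1.

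**Figure D3:**
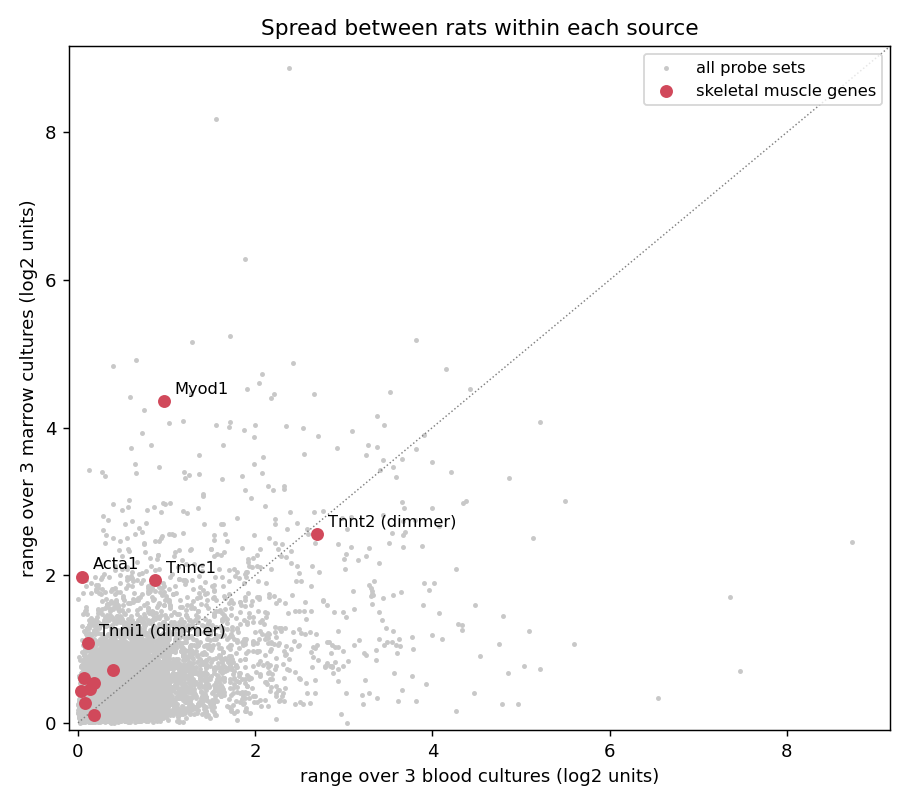
Range over the 3 blood cultures (horizontal axis, log2 units) against the range over the 3 marrow cultures (vertical axis) for all probe sets with values on all 6 arrays (grey) and the 12 member probe sets (red), with a dotted line where both are equal. Myod1 varied by 0.97 in blood and 4.36 in marrow cultures, and Acta1 by 0.05 and 1.98.

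The members differed in which marrow culture was the highest. It was that of rat S5 in 6 of 10 genes, against 37.8% of all genes. It was that of rat S6 in 4 of 10 genes, against 40.9% of all genes. Every gene has some order over 3 cultures, so nothing is read from these counts, and the orders are a description. Relative to the marrow culture of rat S4, Myod1 was higher by 3.28 in that of rat S5 and by 4.36 in that of rat S6. Acta1 was higher by 1.98 and 0.97, and Tnnc1 by 1.93 and 1.29, so that both peaked in rat S5 where Myod1 peaked in rat S6. The dimmer Tnni1 probe set had the same order as Acta1 and Tnnc1, with 1.08 in rat S5 and 0.61 in rat S6. Klhl41 was higher by 0.64 in rat S5 and differed by -0.07 in rat S6. The order of Myod1, lowest in rat S4 and highest in rat S6, was also found for Tnni2, Mb and the dimmer Tnnt2 probe set, with marrow ranges of 0.61, 0.54 and 2.56. In these 3 the blood and marrow cultures overlapped. No test of this order was made over 3 cultures, and the range of 0.11 in Myog gives no order.

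Macrophages can remain in early stromal cultures, and their markers were read on the same arrays. The 8 macrophage and leukocyte markers had a summed linear signal of 6609 to 8082 in blood cultures and 3486 to 7632 in marrow cultures, and none was at 0. The marrow culture of rat S4 was the lowest of the 3 for 8 of 8 markers, with a sum of 3486 against 5884 in rat S5 and 7632 in rat S6, the order of Myod1. Cd68 stood at 9.64, 10.78 and 11.11 in the marrow cultures of rats S4, S5 and S6 and at 10.94 or above in blood cultures, where Myod1 was lowest. Of the adipocyte list 3 of 5 markers were on the array, with a summed signal of 946 to 1576 in blood cultures and of 329, 1280 and 489 in the marrow cultures of rats S4, S5 and S6. None was at 0, and all 3 were lowest in rat S4 among marrow cultures. The sum had the marrow order of Acta1 and Tnnc1, but it mostly follows its brightest marker, Lpl. Lpl stood at 7.56, 10.02 and 7.98 in the marrow cultures of rats S4, S5 and S6. Plin1 had the same order, at 6.65, 7.29 and 7.10, while Fabp4 had that of Myod1, at 5.31, 6.41 and 6.63. The part of either marker list in the result was not tested.

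Promoter sequences are shown for Acta1 and Klhl41, which were low in every blood culture, and for Myog and Ckm, whose mean differences were -0.34 and -0.02. Each is the stretch of 250 bases before the start of the gene in RefSeq (rat build GRCr8), 5′ to 3′ on the strand of the gene, with E-boxes of the form CANNTG in capitals.
Acta1, chr19:68784195-68784444, minus strand: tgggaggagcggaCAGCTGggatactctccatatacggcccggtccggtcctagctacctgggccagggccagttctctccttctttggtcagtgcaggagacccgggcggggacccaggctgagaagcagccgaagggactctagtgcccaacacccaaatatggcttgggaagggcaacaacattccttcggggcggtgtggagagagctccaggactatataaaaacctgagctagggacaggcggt
Klhl41, chr3:74841868-74842117, plus strand: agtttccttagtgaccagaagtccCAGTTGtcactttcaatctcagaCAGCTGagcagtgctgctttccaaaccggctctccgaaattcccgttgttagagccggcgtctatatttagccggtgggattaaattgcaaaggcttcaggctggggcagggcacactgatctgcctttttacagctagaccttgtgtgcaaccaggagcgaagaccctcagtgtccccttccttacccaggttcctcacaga
Myog, chr13:48297226-48297475, plus strand: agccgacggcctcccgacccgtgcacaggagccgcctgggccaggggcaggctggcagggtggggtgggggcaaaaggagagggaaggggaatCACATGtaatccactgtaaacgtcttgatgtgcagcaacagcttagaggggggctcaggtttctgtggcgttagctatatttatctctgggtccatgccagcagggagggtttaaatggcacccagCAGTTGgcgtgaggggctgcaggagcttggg
Ckm, chr1:88189211-88189460, plus strand: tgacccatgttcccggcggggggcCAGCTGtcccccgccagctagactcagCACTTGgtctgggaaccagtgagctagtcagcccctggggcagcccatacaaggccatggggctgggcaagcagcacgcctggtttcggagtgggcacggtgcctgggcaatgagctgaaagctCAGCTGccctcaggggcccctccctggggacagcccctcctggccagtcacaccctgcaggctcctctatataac

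Promoters of 8 of the 10 genes, all but Myod1 and Tnnc1, were matched by symbol. All 4 stretches shown held at least 1 E-box, 1 in Acta1, 2 in Klhl41, 2 in Myog and 3 in Ckm, and so did 65.5% of 33469 rat promoters of the same length, with 30.8% holding 2 or more. The form CAGCTG, which reads the same on both strands and is 1 case of CANNTG, was found once each in Acta1 and Klhl41 and at 2 places in Ckm, against at least once in 12.0% and at least 2 times in 1.04% of all promoters. Acta1 also held a CArG box, the motif of serum response factor, 94 bases before the start, and 1 CATTCC, the MCAT box. Klhl41 held a MEF2 box, the motif of the MEF2 factors, 142 bases before the start. The MEF2 box was searched as CTAWWWWTAR, where W is A or T and R is A or G. The stretch of Myog holds ctatatttat, which departs from this pattern only in its last base and was not counted. On either strand a CArG box was present in 1.5%, a CATTCC in 12.1% and a MEF2 box in 1.68% of all promoters, and a TATAAA, found in Acta1, in 12.9%. CACCTG, also a case of CANNTG, was in none of the 4 stretches and in 15.9% of all promoters. Ckm, whose groups overlapped, held the most E-boxes of the 4, and 11.5% of all promoters held 3 or more.

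The members were set in a wider muscle programme of 106 other genes in 8 lists. No gene among these passed in limma over all probe sets, against 0.25% of all genes called lower and 0.24% called higher in blood cultures. An unadjusted limma p under 0.05 was found for 22 of 106, or 20.8%, against 11.1% of all genes. The 22 genes include some lower and some higher in blood cultures. Nothing is read from their share, because the lists were fixed with earlier results of these data known. In 13 of the 106 genes, or 12.3%, every blood culture was below every marrow culture, against 9.73% of all genes, so that this share is near the background. The opposite order was found too, as in Tpm1, Pdlim3, Jph1, Pgam2 and Twist1, and was not counted. The median difference of the 106 genes was -0.08. With the variance following the signal, 1 of the 106 passed, Myl11 (adjusted p = 0.0399).

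None of 15 other regulators of the myogenic programme passed, and their median difference was -0.13. Mef2c, a partner of the Myod1 family, differed by -1.18 ± 0.32 (limma adjusted p = 0.29) and stood at 6.30, 6.54 and 7.55 in blood cultures against 8.37, 7.08 and 8.47 in marrow cultures. Its marrow level was lowest in rat S5, unlike Myod1. Cdkn1a, the cell cycle inhibitor p21 that rises as myoblasts leave the cycle, differed by 0.57 ± 0.19 (limma adjusted p = 0.387), and its other probe set by 0.24 ± 0.43. The determination gene Myf5 and the satellite cell gene Pax7 were not measured under a symbol of their own. Of the 10 genes of the myoblast surface and fusion list none passed. Itga7, the laminin receptor subunit of muscle fibres, differed by -1.01 ± 0.17 (limma adjusted p = 0.129), at 6.84, 6.82 and 7.32 in blood cultures and 7.64, 8.19 and 8.17 in marrow cultures, although its 2 dimmer probe sets gave -0.76 ± 0.17 and 0.18 ± 0.39. Ncam1, a cell adhesion molecule of myoblasts and nerve, differed by 1.34 ± 0.41 (limma adjusted p = 0.338), and on its dimmer probe set by 0.27 ± 0.14.

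Of 12 other thin filament genes none passed. Tnnc2, the fast troponin C, and Tnnt3, the fast troponin T, had differences of -0.54 ± 0.17 and -0.48 ± 0.13 (limma adjusted p = 0.363 and 0.295), without overlap between the groups. Tnnc2 was highest in the marrow culture of rat S5, at 8.40, and so was Tnnt3, at 8.26. Tpm1, a tropomyosin also made by smooth muscle, differed by 0.66 ± 0.19 (limma adjusted p = 0.32) on the brightest of 6 probe sets, which ranged from -0.67 to 1.09. On its brightest probe set every blood culture was above every marrow culture.

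The thick filament list held the 3 most negative differences of the 106 genes, and none of its 18 genes passed. Myl11, the fast skeletal myosin light chain earlier named Mylpf, stood at 4.11, 4.26 and 4.39 in blood cultures, against 5.96, 8.57 and 7.29 in marrow cultures. The groups did not overlap, the marrow culture of rat S5 was the highest, and the difference was -3.02 ± 0.47 (limma adjusted p = 0.116). Myl1, another light chain of fast fibres, stood at 4.88, 5.43 and 4.89 in blood cultures, against 6.43, 7.78 and 5.81 in marrow cultures, and differed by -1.61 ± 0.29 (limma adjusted p = 0.15). Myl4, the embryonic light chain, and Myh3, the embryonic heavy chain, were picked out after their values were seen. They also did not overlap between the groups, with differences of -1.32 ± 0.41 and -0.67 ± 0.18 (limma adjusted p = 0.345 and 0.293). Myh8, the perinatal heavy chain, was at 0.00 in the blood cultures of rats S5 and S6 and in the marrow culture of rat S6. It was at 3.37 in the blood and 3.74 in the marrow culture of rat S4.

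Of 19 other Z disc and cytoskeleton genes none passed, and the 2 with the largest differences were higher in blood cultures. Cryab, a small heat shock protein of muscle, differed by 2.90 ± 0.65 and Pdlim3, an actinin-associated protein, by 1.85 ± 0.37 (limma adjusted p = 0.217 and 0.18). The groups overlapped for Cryab and did not for Pdlim3. Ankrd1, a stretch-responsive gene of heart and muscle, stood at 9.89, 6.43 and 10.34 in blood cultures and 7.86, 9.75 and 8.75 in marrow cultures, and its difference of 0.10 ± 1.10 did not exceed the spread between rats. Of 13 calcium handling genes none passed. The junctophilin genes Jph1 and Jph2, whose proteins tie the calcium store to the cell membrane, differed by 0.57 ± 0.12 and -0.53 ± 0.16 (limma adjusted p = 0.208 and 0.346). Every blood culture was above every marrow culture for Jph1, while the groups overlapped for Jph2.

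Of 8 genes of the neuromuscular junction none passed. The acetylcholine receptor subunits Chrnb1 and Chrng had differences of -0.79 ± 0.18 and -0.61 ± 0.19 (limma adjusted p = 0.228 and 0.35), without overlap between the groups. Chrnb1 stood at 6.50, 7.02 and 7.48 in the marrow cultures of rats S4, S5 and S6, the order of Myod1. Of 11 other genes of muscle energy supply none passed. Pgam2, the muscle phosphoglycerate mutase, differed by 0.33 ± 0.15 (limma adjusted p = 0.513), with every blood culture above every marrow culture. Cox6a2, a heart and muscle subunit of cytochrome oxidase, stood at 8.19, 8.75 and 7.62 in blood cultures and 6.85, 8.34 and 8.96 in marrow cultures. It had the order of Myod1 across marrow cultures but was not low in blood cultures.

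**Figure D4:**
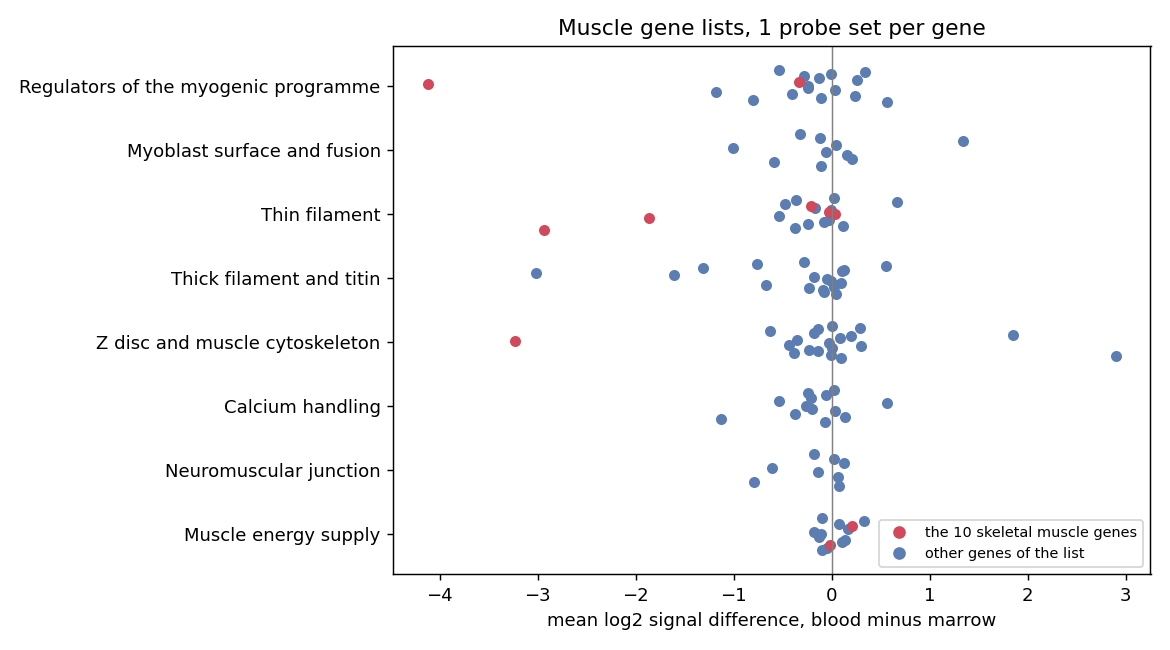
Mean log2 signal difference, blood minus marrow (horizontal axis), for each gene of the 8 muscle lists, with the 10 members in red and the other genes in blue. Most genes lie near 0, and Myl11 at -3.02 and Myl1 at -1.61 in the thick filament list lie nearest to the members Myod1, Klhl41, Acta1 and Tnnc1.

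The profile of Myod1 over the 6 arrays was compared with 336 other genes that spanned at least 2 log2 units and reached above the table's median. Likeness was measured by Pearson's r over the 6 arrays, which are paired by rat, and is a description. The members were left out of the ranking. The 10 most alike other genes had r of 0.86 to 0.96, in the order H19, Crabp2, Myl11, Ltbp4, Rtn2, Prrt1, Avpr1a, Chchd10, Igdcc4 and Ift27. A high r can come from the gap between blood and marrow cultures alone. The marrow range of Ift27 was 0.29, and Avpr1a was lowest among marrow cultures in rat S5, unlike Myod1. In the marrow culture of rat S4, Rtn2 was at 5.21 and Chchd10 at 6.77, each inside its range over blood cultures. The imprinted RNA gene H19 was at 8.19, 8.73 and 8.15 in blood cultures, against 10.51, 12.47 and 12.22 in marrow cultures. Crabp2, a retinoic acid binding protein, was at 5.37, 5.40 and 5.20 in blood cultures, against 7.42, 8.41 and 8.69 in marrow cultures. Both were thus intermediate in the marrow culture of rat S4, where Myod1 was near its blood level. Ltbp4, which binds latent TGF-beta, was at 6.25, 6.72 and 6.77 in blood cultures, against 8.37, 9.47 and 9.19 in marrow cultures. Of the members, Tnnc1, Acta1 and Klhl41 spanned 2 units and had r of 0.95, 0.92 and 0.84, so that Tnnc1 and Acta1 would stand above Myl11 in it. Ranked by Spearman's rho instead, 4 of the 10 genes were in the leading 11, which are tied at the last place.

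**Figure D5:**
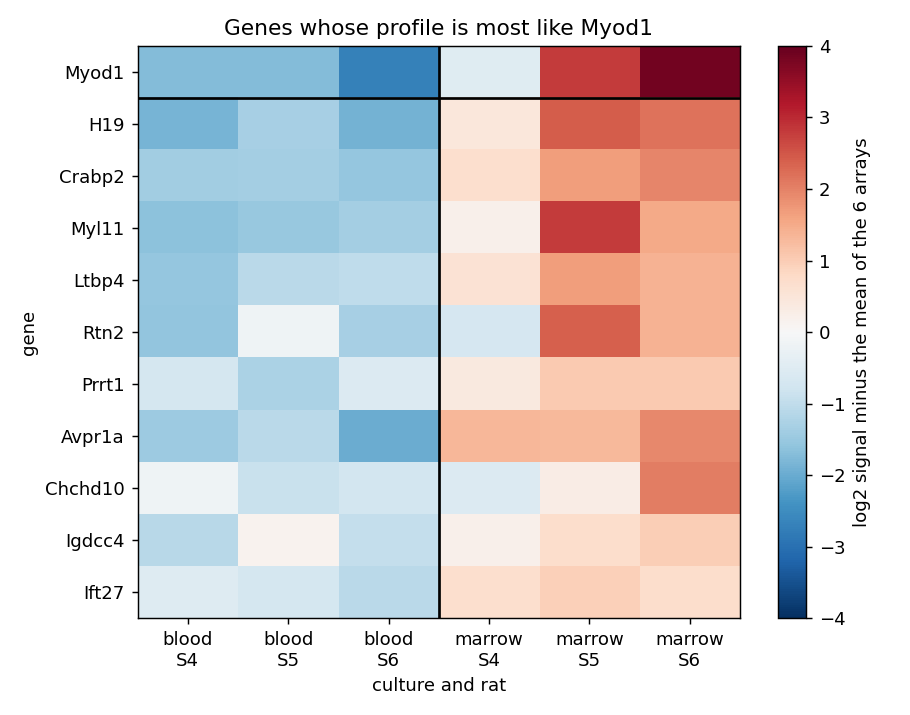
Log2 signal minus the mean of the 6 arrays (colour) for Myod1 (top row) and the 10 genes outside the members most like it, in blood cultures (left) and marrow cultures (right) of each rat. All 10 averaged lower in blood cultures. The marrow culture of rat S4 lay between the other marrow cultures and the blood cultures for all but Rtn2, Avpr1a and Chchd10. For Igdcc4 and Ift27 this held by a narrow margin.

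Markers of further cell types were also read. The 8 smooth muscle markers summed to 4334 to 7435 in blood cultures and 3485 to 3990 in marrow cultures, without overlap. A linear sum mostly follows its brightest markers, and the list was not uniform. Tagln and Acta2 were higher in every blood culture, by 0.93 and 0.61 on average. Myh11 was lower in every blood culture, with a difference of -0.70. The blood and marrow values of Cnn1, Smtn, Lmod1, Mylk and Actg2 overlapped. The 8 of 9 cardiac markers with a value on all 6 arrays summed to 4384 to 4983 in blood cultures and 3867 to 4591 in marrow cultures, which overlap. The 3 endothelial markers summed to 254 to 291 in blood cultures and 224 to 314 in marrow cultures. No marker of these lists was at 0. The 8 stromal markers summed to 22712 to 23375 in blood cultures and 18652 to 23420 in marrow cultures, and all 8 averaged above the table's median. This sum mostly follows Col1a1 and Col1a2, and single markers ran in opposite directions. Every blood culture exceeded every marrow culture for Eng, Nt5e and Col1a1, with mean differences of 1.62, 0.77 and 0.47. The reverse held for Pdgfra and Pdgfrb, at -1.93 and -0.38. Col1a2, Thy1 and Cd44 overlapped between the groups, and the sign for Thy1 depended on the animal. The satellite cell list had 1 of 4 genes on the array, Itga7, described above. Per the file headers, rats S4 and S5 were run on fluidics station 1 and rat S6 on station 2. Myod1 differed by -2.89 on station 1 and -6.58 on station 2, Acta1 by -2.94 on both, Klhl41 by -3.38 and -2.93, and Tnnc1 by -1.52 and -2.57. Within the stations, blood arrays were on odd and marrow arrays on even modules, so that the module's side and the source cannot be told apart.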

How the data were processed

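RNA of 6 cultures was measured on 6 RAE230A arrays. The deposited log2 values were made by the authors with GCOS, the array maker's software, per the submitters' processing notes; how probes were summarised and arrays normalized was not given in the sources used here. The base was read from the values. Of 95538 cells 86 were empty and left empty, and 94 were 0. Values were used as deposited (pseudocount 0), leaving out 57 control probe sets and filtering no signal, since 2 of 12 member probe sets pass a filter at the table's median of 8.18. Array means (2% trimmed) differed by up to 10.2%.

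Blood minus marrow was fitted with limma 3.58.1 in R 4.3.3 by a two-sided moderated test with rats as fixed blocks, since the series' design text pairs cultures by animal. Deviations of same-rat arrays correlated at -0.16, 0.21 and 0.15 (rats S4, S5 and S6), and those of different rats at -0.33 to 0.29. Of the probe sets, 12789 had 1 symbol, 312 several and 2822 none in the platform annotation, and all 10 members matched RefSeq identifiers. The brightest probe set stood for a gene. List genes were named by the widest marrow range (up to 3) and smallest p (up to 2) per list; not all are given. Members and lists were chosen with earlier results of these data known. The fit was tested on simulated data. Alternatives were a signal filter, trimmed-mean scaling, quantile normalization, a floor on low values, no rat block, each rat left out, and, added after seeing the data, a variance trend with signal. Sums of markers are of linear signals over genes with a value on all 6 arrays. Tables came from Python 3.11.15 with numpy 2.4.6 and pandas 2.3.3, and figures from matplotlib 3.10.9.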

Additional observations from a re-analysis of the deposited data

How the results depend on the processing

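The number of probe sets past the threshold was 82 (42 higher and 40 lower in blood cultures). It was 239 with a filter at the table's median, 48 with arrays scaled to a common trimmed mean, 43 with quantile normalization, 251 with the variance following the signal (chosen after seeing the data) and 0 to 165 with a rat left out, 0 without rat S4 or rat S6. Without the replicate block, that is the pairing by rat, it was 102, and Klhl41 still passed (adjusted p = 0.00421). Of the member probe sets, 1 passed; 0 of the 2 left by the filter passed, 2 with the variance following the signal, and 0 to 1 with a rat left out. Of the ranges, the blood median of 0.16 was 0.05 to 0.13 with a rat left out, and the marrow median of 0.58 was 0.38 to 0.45. Of the genes most like Myod1, 4 were kept with Spearman's rho. The mean differences of Myod1, Myog, Acta1, Klhl41 and Tnnc1 were below 0 in every alternative that kept their probe sets (the filter kept Myog alone of these). Small differences changed sign with a rat left out, running from -0.04 to 0.18 for Tnni1, -0.20 to 0.10 for Tnni2, -1.72 to 0.70 for the dimmer Tnnt2 probe set, -0.11 to 0.11 for Ckm, -0.87 to 1.81 for Ankrd1 and -0.47 to 0.88 for Cox6a2. The cause was not tested. The lack of a known background limits folds of signals below 8.18, and 3 rats limit every p.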
